A study of Mus musculus with 22 samples.

Results

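The 10 imprinted genes described here were Peg3, Peg10, Ndn, Magel2, Dlk1, Plagl1, Nnat, Meg3, Cdkn1c and H19, chosen by name as imprinted genes of the developing brain. They were chosen with earlier results of these data known, so their contrasts with all probes are descriptions. Of the 10 genes, 9 were read from a matched RefSeq probe, out of 20129 gene symbols with a matched probe in the series. H19 is named without a value because no probe matched it in the reference table. Each gene was read from the RefSeq probe with the highest median level over all arrays. The levels came from Transcriptome Tomography, a technique that cuts the whole brain along a body axis, gathers neighbouring slices into slabs, each termed a fraction, and hybridises the total RNA of every fraction to a microarray. The brains were those of 3 male C57BL/6J mice, an inbred strain, with no treatment or genetic change given in the labels. A mouse sliced in the coronal plane gave 10 fractions, another in the horizontal plane gave 6 and the last in the sagittal plane gave 6, so that 22 arrays were read. The age was 7 days after birth in the titles and 3 days in the age field. The labels put 100 slices of 5 µm in a slab, 500 µm in all, whereas the study's methods state thicker fractions, and no label says at which end of the brain fraction 1 lay. Coronal fraction 10 pooled slabs 10 and 11, sagittal fraction 1 pooled slabs 1 and 2, and sagittal fraction 6 pooled slabs 7 to 9.

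Imprinted genes are transcribed mainly from the copy inherited from 1 parent, and the silent copy is set by DNA methylation laid down in the egg or sperm. They lie in clusters that share a control region. In the young brain they are known for roles in growth, feeding, sleep, stress and maternal care, and several are strong in hypothalamus, midbrain and hindbrain. Peg3, Peg10, Ndn, Magel2, Dlk1, Plagl1 and Nnat are expressed from the paternal copy, and Meg3, Cdkn1c and H19 from the maternal copy. The arrays read the sum of both copies, so no value below says which copy was transcribed.

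Methylation of the dinucleotide CG carries the parental mark, so the 250 bases before the annotated start of 5 of these genes are shown with every CG in capitals. They are RefSeq sequences of build GRCm38.p6, a later build than the one the array was designed on, and each window lies outside the annotated gene. The table of promoters held 7 of the 10 genes, and the windows of Peg3 and Dlk1 and another window of Meg3 overlapped the annotated gene and are not printed. Nnat and Plagl1 have the windows with the most CG of these 5, Ndn and Magel2 belong to the same cluster, and Meg3 is a non-coding RNA.
Nnat (chr2:157559828-157560077, plus strand): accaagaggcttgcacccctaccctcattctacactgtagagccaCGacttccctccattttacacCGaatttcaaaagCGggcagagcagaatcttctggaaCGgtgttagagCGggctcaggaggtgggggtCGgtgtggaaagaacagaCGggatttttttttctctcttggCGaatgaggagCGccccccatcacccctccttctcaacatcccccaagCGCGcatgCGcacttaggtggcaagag
Plagl1 (chr10:13090582-13090831, plus strand): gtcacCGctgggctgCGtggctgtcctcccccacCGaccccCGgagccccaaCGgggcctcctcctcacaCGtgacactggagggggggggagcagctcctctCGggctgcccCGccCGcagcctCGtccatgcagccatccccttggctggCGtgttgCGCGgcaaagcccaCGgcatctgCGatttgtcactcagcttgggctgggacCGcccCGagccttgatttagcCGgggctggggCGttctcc
Ndn (chr7:62348027-62348276, plus strand): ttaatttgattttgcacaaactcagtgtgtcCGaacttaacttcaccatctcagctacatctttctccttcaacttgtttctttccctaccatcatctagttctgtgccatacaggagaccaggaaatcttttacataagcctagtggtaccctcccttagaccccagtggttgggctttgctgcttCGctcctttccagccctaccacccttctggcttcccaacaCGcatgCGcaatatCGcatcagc
Magel2 (chr7:62376729-62376978, plus strand): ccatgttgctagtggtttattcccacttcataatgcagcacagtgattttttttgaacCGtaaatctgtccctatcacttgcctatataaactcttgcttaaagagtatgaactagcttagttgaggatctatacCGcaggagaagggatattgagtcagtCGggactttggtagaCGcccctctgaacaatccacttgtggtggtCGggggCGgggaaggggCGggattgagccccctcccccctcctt
Meg3 (chr12:109540746-109540995, plus strand): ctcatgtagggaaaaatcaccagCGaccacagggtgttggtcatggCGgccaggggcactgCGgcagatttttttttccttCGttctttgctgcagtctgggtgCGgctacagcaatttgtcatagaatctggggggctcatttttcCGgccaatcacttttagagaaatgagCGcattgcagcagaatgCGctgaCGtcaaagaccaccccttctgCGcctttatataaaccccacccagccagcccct
The Plagl1 window held 19 CG, and 19.7% of the 32851 promoter windows held at least as many. The Nnat window held 12 CG (33.5% of windows held at least as many), the Meg3 window 10 (37.8%), the Magel2 window 7 (46.3%) and the Ndn window 5 (55.6%), against a median of 6 over all windows. The letters GGGCGG, searched on both strands, stood at 2 places in the Magel2 window and 2 in the Plagl1 window and at none in the other 3 windows shown, and 32.7% of all windows held them. TATAAA, searched likewise, stood at 1 place in the Magel2 window and 2 in the Meg3 window, against 12.4% of all windows. CCAAT stood at 1 place in the Meg3 window and 2 in the unprinted Peg3 window, against 33.8% of all windows. A match is a description of letters and not a binding site.

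On single arrays, 29605 to 41965 of the 55600 probes exceeded background clearly. Feature Extraction marked the slope of the spike-in RNA as out of range on 7 arrays, namely numbers 1 and 2 of the coronal, 1 to 3 of the horizontal and 1 and 3 of the sagittal series. A dim spike-in probe, a107, read 6.39 to 7.94 log2 units on these 7 arrays and 3.07 to 4.94 on the other 15. The arrays lay on 4 slides, with the horizontal series alone on slide 4, sagittal fractions and coronal fractions 9 and 10 on slide 3, coronal fraction 2 on slide 2 and the remaining coronal fractions on slide 1. The ends of the series could be named only by marker genes. The mean level of 5 olfactory bulb genes was highest in coronal fraction 10 and that of 7 hindbrain and spinal cord genes in coronal fraction 1. In the horizontal series the mean level of 5 cerebral cortex genes was highest in fraction 1, although Tbr1 singly was highest in fraction 2 and Slc17a7 in fraction 5, and the mean level of 8 hypothalamus genes was highest in fraction 6, although Pmch and Hcrt were highest in fraction 5. All 6 neuronal markers and all 6 astrocyte markers of the labelled tissue were well above background in all 22 fractions.

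Levels are given on a log2 scale, as the log2 intensity of a probe less that of the array's 75th percentile, so that 0 is the level of the probe at that percentile and a difference of 1 is 2-fold. They are relative levels within an array, and levels of different genes are not set against each other because each probe has its own brightness. No fraction had a replicate. The p-values therefore measure the scatter of single arrays around a curve, pooled over the 3 mice, and hold no spread between animals. In bulk fractions, fewer cells of a type and less RNA per cell cannot be told apart.

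In all 22 fractions, 8 of the 9 genes were well above background, and Peg10 was so in 14. The SD over the 22 fractions was highest for Dlk1, at 1.25, a value above that of 84.5% of the 39621 probes tested. It was 0.932 for Peg3, 0.621 for Magel2, 0.613 for Meg3, 0.594 for Plagl1, 0.514 for Nnat, 0.506 for Cdkn1c and 0.486 for Ndn. The readings of Peg10 had an SD of 0.934, but 8 of its 22 levels, its lowest ones in the horizontal and sagittal series among them, were not well above background, so that its place in this order is not measured. The median over the 9 genes was 0.613 and over all tested probes 0.525. The heat map of levels shows each gene over the 3 series. Of the 9 genes, Dlk1, Peg3 and Peg10 passed both the coronal and the horizontal test of position, and Magel2 and Meg3 passed neither.

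**Figure D1:**
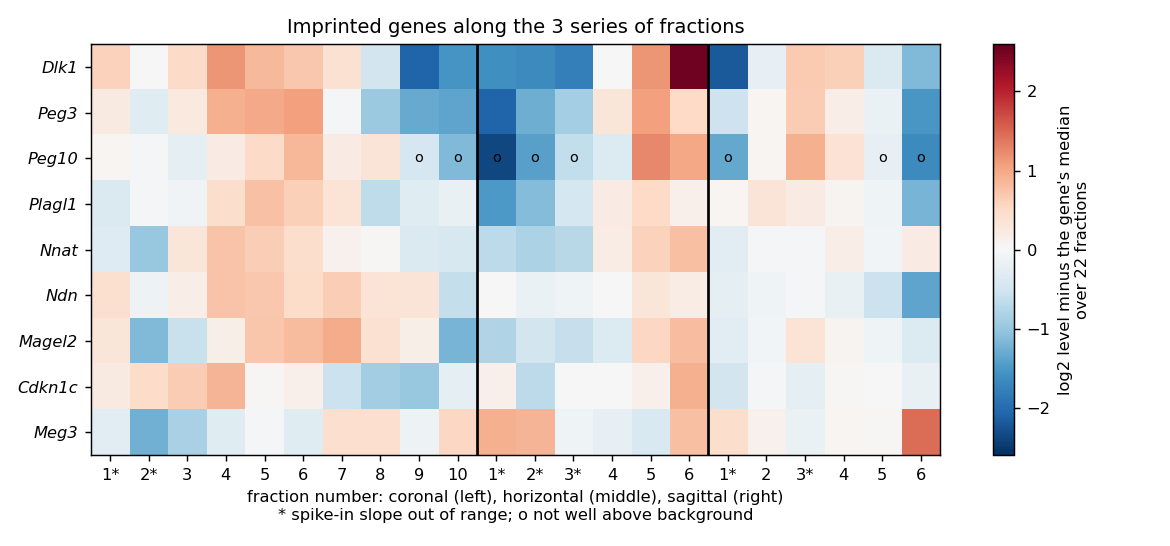
Level of each imprinted gene in each of the 22 fractions as a colour, on a log2 scale relative to the median of that gene over all fractions; vertical lines part the coronal, horizontal and sagittal series, a star marks an array with the spike-in slope out of range and a circle a level not well above background. Dlk1 and Peg3 have low levels in horizontal fractions 1 to 3 and high levels in horizontal fractions 5 and 6, Peg10 is well above background in horizontal fractions 4 to 6 alone, while the Meg3 probe used is highest in sagittal fraction 6.

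The horizontal series, whose fraction 6 was highest in the mean of the hypothalamus markers, had the largest range of levels for Dlk1, Peg3 and Plagl1, whereas Ndn, Magel2, Nnat, Meg3 and Cdkn1c ranged more along the coronal series. Along it 5 of the 9 genes changed (Dlk1, Peg10, Peg3, Plagl1 and Nnat), and all 5 rose from fraction 1 to fraction 6. Of all 39621 probes tested, 6.57% passed the same test. Run on the 25815 probes well above background in all fractions alone, the test passed 4169, among them 4 of 8 listed genes. The median fitted range was 1.79 log2 units over the 9 genes and 0.99 over all probes, and the median end-to-end change was 1.79 against -0.20.

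Dlk1 encodes a transmembrane protein related to the Notch ligands that holds back differentiation. Its level was -0.70, -0.77 and -0.88 in horizontal fractions 1, 2 and 3 and then 0.90, 2.03 and 3.41 in fractions 4, 5 and 6. The lowest and highest fraction differed 19.6-fold. The 3 low fractions lay within 0.2 log2 units of each other and the other 3 climbed stepwise. The fitted end-to-end change was 4.40 ± 0.61 (SE) log2 units (limma adjusted p = 0.00471).

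Peg3 encodes a large zinc finger protein known for effects on growth and maternal care. Its level rose from -1.26 in horizontal fraction 1, through a median of 0.52, to 1.89 in fraction 5, an 8.82-fold difference, and was 1.34 in fraction 6. The fitted change was 3.03 ± 0.55 (adjusted p = 0.0199). Fractions 1 to 3 were all below 0 and fractions 4 to 6 all above 1.

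Peg10 derives from a retrotransposon and encodes gag-like and pol-like proteins. It was dim and well above background in horizontal fractions 4, 5 and 6 alone, at -4.65, -3.04 and -3.29. Fractions 1, 2 and 3 read -6.66, -5.71 and -4.93, all not well above background, so that only the upper 3 levels are measured. The fitted change was 3.59 ± 0.42 (adjusted p = 0.0031) and rests on those dim readings. With normexp background correction it was 0.55 (adjusted p = 0.0836), so that neither the size of the change nor the call was kept.

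Plagl1 encodes a zinc finger transcription factor that slows the cell cycle and acts on other imprinted genes. Its lowest horizontal level was 1.72 in fraction 1, its median 3.04 and its highest 3.72 in fraction 5, a 3.99-fold difference, with a fitted change of 1.95 ± 0.38 (adjusted p = 0.0227). Nnat encodes neuronatin, a small membrane protein of the endoplasmic reticulum in neurons and endocrine cells. It lay between 4.80 and 4.94 in horizontal fractions 1 to 3 and between 5.83 and 6.41 in fractions 4 to 6, with a fitted change of 1.79 ± 0.41 (adjusted p = 0.0405). For both genes the 3 low-numbered fractions were all below the 3 high-numbered ones. The Nnat call was lost without any one of the 6 horizontal fractions, stood in 7 of the 22 fits that left out a fraction of any series, and was lost when arrays were centred on their medians, without scaling and without the filter on detection.

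In the horizontal series the arrays with the spike-in slope out of range were fractions 1, 2 and 3, exactly the fractions in which Dlk1, Peg3, Peg10, Plagl1 and Nnat were low, so this difference between arrays and position cannot be told apart there. The a107 level also moved with these genes on the 15 arrays in range, where its r was -0.897 with Peg3, -0.809 with Dlk1, -0.787 with Plagl1, -0.768 with Nnat and -0.708 with Peg10, and over all 22 arrays r was -0.822 with Nnat and between -0.605 and -0.536 with the other 4. These points share slides and mice, and r is a description.

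With a107 as a covariate the calls over all probes fell from 2604 to 101 of 39621. Of the 9 genes 1 passed, Peg10 (adjusted p = 0.0356), whose readings in fractions 1 to 3 were not well above background, so that its change is not measured. The changes of the others were 3.50 for Dlk1 (0.0893), 2.22 for Peg3 (0.195), 1.35 for Plagl1 (0.198) and 0.78 for Nnat (0.586), each smaller than without the covariate. Without horizontal fraction 1 only 9 of all probes and none of the 9 genes passed. The changes were then 4.51 for Dlk1 (0.0559), 2.69 for Peg10 (0.0706), 1.81 for Nnat (0.0823), 1.40 for Plagl1 (0.0850) and 2.22 for Peg3 (0.0881). Leaving out fraction 2 left 3 of the 9 genes and 569 of all probes, and leaving out fraction 5 left 2 and 396. On the arrays in range, which keep horizontal fractions 4 to 6 alone, 13 of all probes and none of the 9 genes passed. The 3 terms of the horizontal curve then pass through all 3 readings. Each change below is thus a difference between single readings, judged by the scatter of the other series, and the test can decide little. From fraction 4 to 6 Dlk1 read 0.90 and 3.41, with a fitted change of 2.51 (adjusted p = 0.821), Peg10 -4.65 and -3.29 with 1.36 (0.367), Nnat 5.83 and 6.41 with 0.58 (0.998), Peg3 1.12 and 1.34 with 0.22 (1) and Plagl1 3.41 and 3.34 with -0.07 (1).

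**Figure D2:**
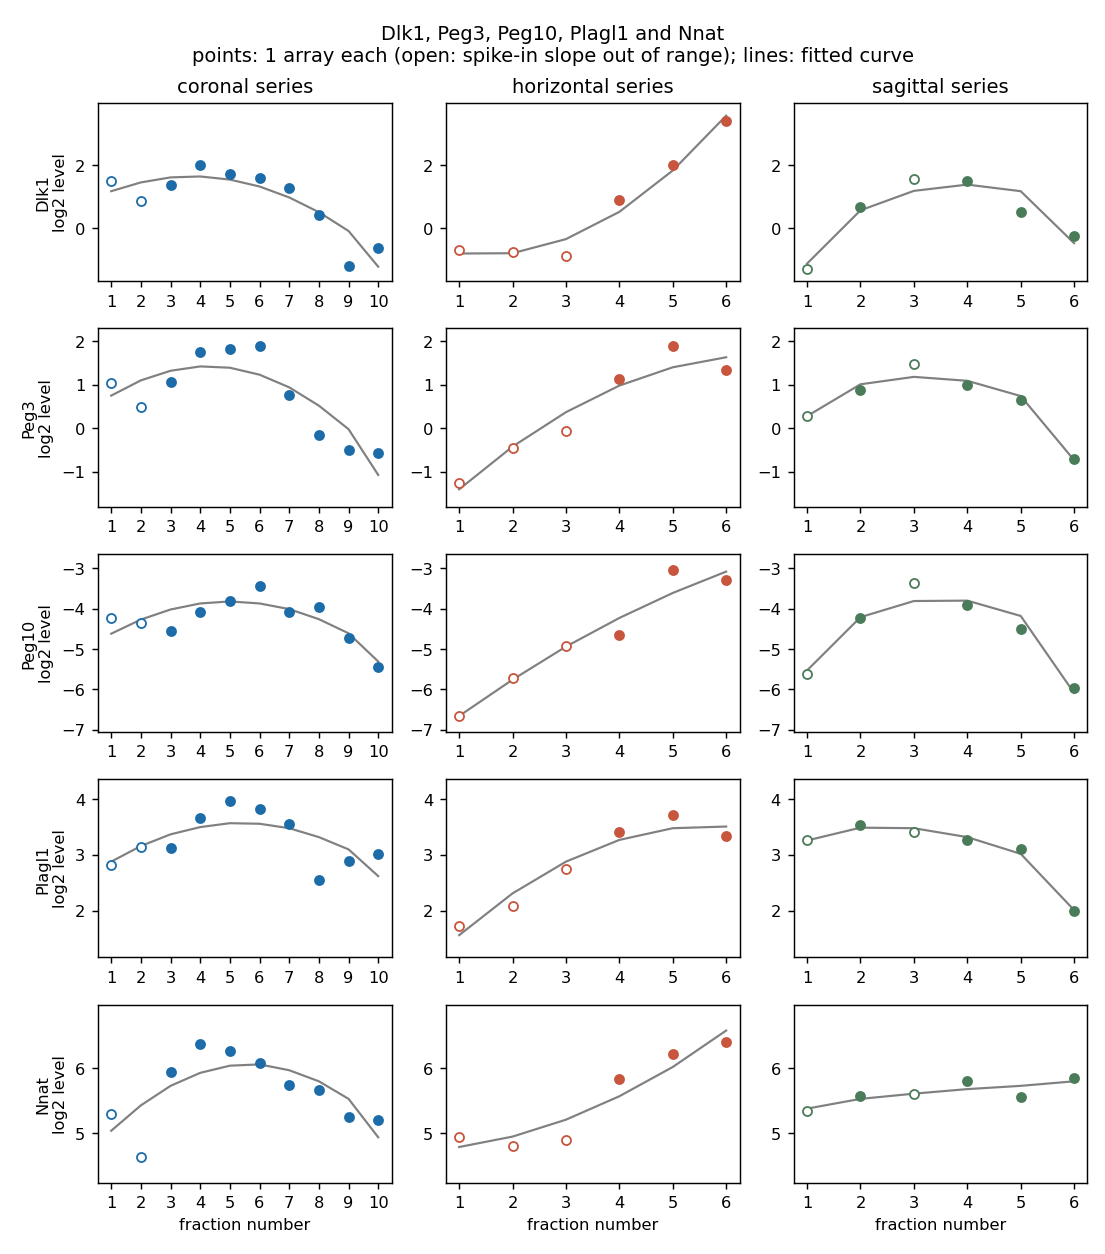
Log2 level of Dlk1, Peg3, Peg10, Plagl1 and Nnat against fraction number in each series, 1 point per array, open where the spike-in slope was out of range, with the fitted quadratic curve as a line; fractions that pooled several slabs are spaced as single fractions. In the horizontal series the 3 open points are the 3 lowest of each gene, and in the coronal series the levels fall towards fractions 9 and 10 for Dlk1 and Peg3.

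The coronal series ran from the hindbrain marker end at fraction 1 to the olfactory bulb marker end at fraction 10. Along it 5 of the 9 genes passed the test (Dlk1, Peg3, Ndn, Peg10 and Cdkn1c), where 19.8% of all probes did. Run on the 25815 probes well above background in all fractions alone, the test passed 8458, among them 7 of 8 listed genes. The quadratic term was negative for all 9 genes, that is, the middle lay above the ends or, for Cdkn1c (-0.05) and Meg3 (-0.02), the curve was nearly straight. The median of this term was -1.10 over the 9 genes and 0.25 over all probes.

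Dlk1 had coronal levels from -1.20 in fraction 9 to 2.03 in fraction 4, with a median of 1.33, a 9.34-fold difference (adjusted p = 0.00703). It stayed between 0.88 and 2.03 in fractions 1 to 7 and fell below 0 in fractions 9 and 10. Peg3 ranged from -0.56 in fraction 10 to 1.89 in fraction 6, with a median of 0.90, a 5.47-fold difference (adjusted p = 0.00972). It was above 1.7 in fractions 4, 5 and 6 and below 0 in fractions 8, 9 and 10. Peg10 was highest in fraction 6, at -3.43, with a median of -4.16, and was not well above background in fractions 9 and 10 (adjusted p = 0.0331). Its call was lost with normexp (0.756) and with trended robust moderation in limma (0.0747). All 3 genes thus had their highest coronal level in fraction 4 or 6 and low levels at the olfactory bulb marker end.

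Plagl1 (adjusted p = 0.100) and Nnat (adjusted p = 0.0512) did not pass the coronal test. Their highest levels were 3.96 in fraction 5 and 6.38 in fraction 4. The lowest Nnat level, 4.64 in fraction 2, came from an array out of the spike-in range. The coronal calls of Dlk1 and Peg3 were kept without any single fraction, but that of Peg3 was lost with the mean of its RefSeq probes, where the linear change was -0.84 instead of -1.72 (adjusted p = 0.0885). With slide as a block the calls over all probes fell from 7855 to 1598 and none of the 9 genes passed, and coronal fractions 9 and 10 lay on a different slide from fractions 3 to 8. The linear change then was -1.30 for Dlk1 (without the block -2.31, adjusted p with it 0.551), -2.18 for Peg3 (without it -1.72, 0.231), -0.67 for Ndn (-0.36, 0.220), -1.91 for Cdkn1c (-1.47, 0.245) and 0.01 for Peg10 (-0.62, 0.477), so that it was smaller for Dlk1 and Peg10 and not for the other 3. Leaving out coronal fraction 5 left 2 of the 9 genes and 5537 of all probes, leaving out fraction 6 or 7 left 3 and 4871 or 5220, and leaving out fraction 1 gave 8 and 10713. The Ndn call was lost without coronal fraction 5 or 10, and the Peg10 call without fraction 2, 5, 6, 7, 9 or 10.

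The sagittal series crosses the brain from side to side. Of the 9 genes 1, Ndn, passed the test of the linear term, where 10.2% of all probes did, and none passed the test of the quadratic term, where 0.0303% did. At an unadjusted p under 0.05 there were 2 of the 9 genes for the linear term, beside 9529 of the 39621 probes, and 6 for the quadratic term, beside 5858. With trended robust moderation in limma 2 of the 9 genes and 236 of all probes passed the quadratic test. The quadratic term was negative for 8 of the 9 genes, and its median was -0.64 against 0.19 over all probes.

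Peg3 was highest in sagittal fraction 3, at 1.47, and lowest in fraction 6, at -0.70. Dlk1 was lowest in fraction 1, at -1.30, with 1.58 and 1.51 in fractions 3 and 4 and -0.25 in fraction 6. Peg10 had its highest level, -3.37, in fraction 3 and was not well above background in fractions 1, 5 and 6. These 3 genes were higher in the middle of the series than at its ends. The quadratic term was -2.18 ± 0.49 for Dlk1 (adjusted p = 0.0742) and -1.36 ± 0.44 for Peg3 (adjusted p = 0.158). That of Peg10 (adjusted p = 0.0543) has no measured size, since both ends of the series were too dim, and was 0.01 with normexp (adjusted p = 0.983). Nnat, between 5.34 and 5.85, and Cdkn1c, between 2.95 and 3.46, varied least in this series.

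Ndn and Magel2 lie next to each other in the cluster whose human counterpart is lost in Prader-Willi syndrome, and both encode proteins of the MAGE family. Necdin, the product of Ndn, restrains proliferation and supports survival of neurons, and Magel2 acts with ubiquitin ligases in protein sorting and is known from the hypothalamus. Ndn had the lowest SD of the 9 genes over all fractions. Its coronal level lay between 2.77 in fraction 10 and 4.13 in fraction 4, with a median of 3.78 (adjusted p = 0.0245). Its horizontal level varied by only 0.49 log2 units, between 3.22 and 3.71 (adjusted p = 0.498). Its sagittal level was between 2.84 and 3.36 in fractions 1 to 5 and 2.03 in fraction 6, the fraction of 3 pooled slabs. The call of the sagittal linear change of -1.13 ± 0.30 (adjusted p = 0.0262) was lost without fraction 2 (0.0574), fraction 3 (0.0507) or fraction 6 (0.747). The size of the change rests mainly on the single array of fraction 6. With a107 as a covariate both calls of Ndn were lost, at an adjusted p of 0.0633 for the coronal test and 0.0510 for the sagittal linear term. The linear changes stayed about as large, at -0.39 (without it -0.36) and -1.19 (-1.13).

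Magel2 followed Ndn closely along the coronal series, with r = 0.877 over its 10 fractions. Their r was 0.835 along the horizontal series, 0.696 along the sagittal series and 0.608 over all 22 fractions. The coronal level of Magel2 was -0.37 in fraction 10 and -0.31 in fraction 2 and reached 1.80 in fraction 7, with a median of 1.07, a 4.51-fold difference. It did not pass the coronal test (adjusted p = 0.0749). The reading of 1.14 in coronal fraction 1 stood far from its neighbour of -0.31 in fraction 2, and without fraction 1 the adjusted p was 2.72e-05. Along the horizontal series Magel2 lay between 0.06 and 0.47 in fractions 1 to 4 and at 1.37 and 1.63 in fractions 5 and 6, a fitted change of 1.59 ± 0.58 that did not pass (adjusted p = 0.116). Without coronal fraction 1 the horizontal test of Magel2 passed too (adjusted p = 0.00536). The difference between Ndn and Magel2 was not tested.

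Cdkn1c encodes a cyclin-dependent kinase inhibitor that takes dividing precursors out of the cell cycle. It fell along the coronal series, from 3.66 to 4.30 in fractions 1 to 4 to between 2.44 and 3.17 in fractions 7 to 10, a fitted change of -1.47 ± 0.39 (adjusted p = 0.0392). The fitted curve was nearly straight, while the readings were highest in fraction 4, lowest in fraction 9 and higher again in fraction 10. Its horizontal levels lay between 2.73 and 3.56 in fractions 1 to 5 and at 4.34 in fraction 6 (adjusted p = 0.141). The coronal call was kept without coronal fraction 1, 4 or 10 and was lost without any other coronal fraction, and it stood in 9 of the 22 fits that left out a fraction of any series. It was also lost when arrays were centred on their medians, without scaling and without the filter on detection.

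Meg3 is a long non-coding RNA transcribed from the maternal copy of the cluster that gives Dlk1 from the paternal copy. It passed none of the tests. Its coronal level was lowest in fraction 2, at 0.54, and highest in fraction 10, at 2.33, with a median of 1.57 and a fitted change of 1.32 ± 0.37 (adjusted p = 0.0525). In coronal fraction 10, horizontal fractions 1 and 2 and sagittal fractions 1 and 6, where Dlk1 was below 0, Meg3 read 2.33, 2.71, 2.67, 2.25 and 3.25, above its median of 1.79 over all fractions. In coronal fraction 9 and horizontal fraction 3, where Dlk1 was also below 0, Meg3 read 1.65 and 1.67, and in horizontal fraction 6 Dlk1 read 3.41 and Meg3 2.58. Over the 22 fractions the r of these neighbours was -0.332.

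**Figure D3:**
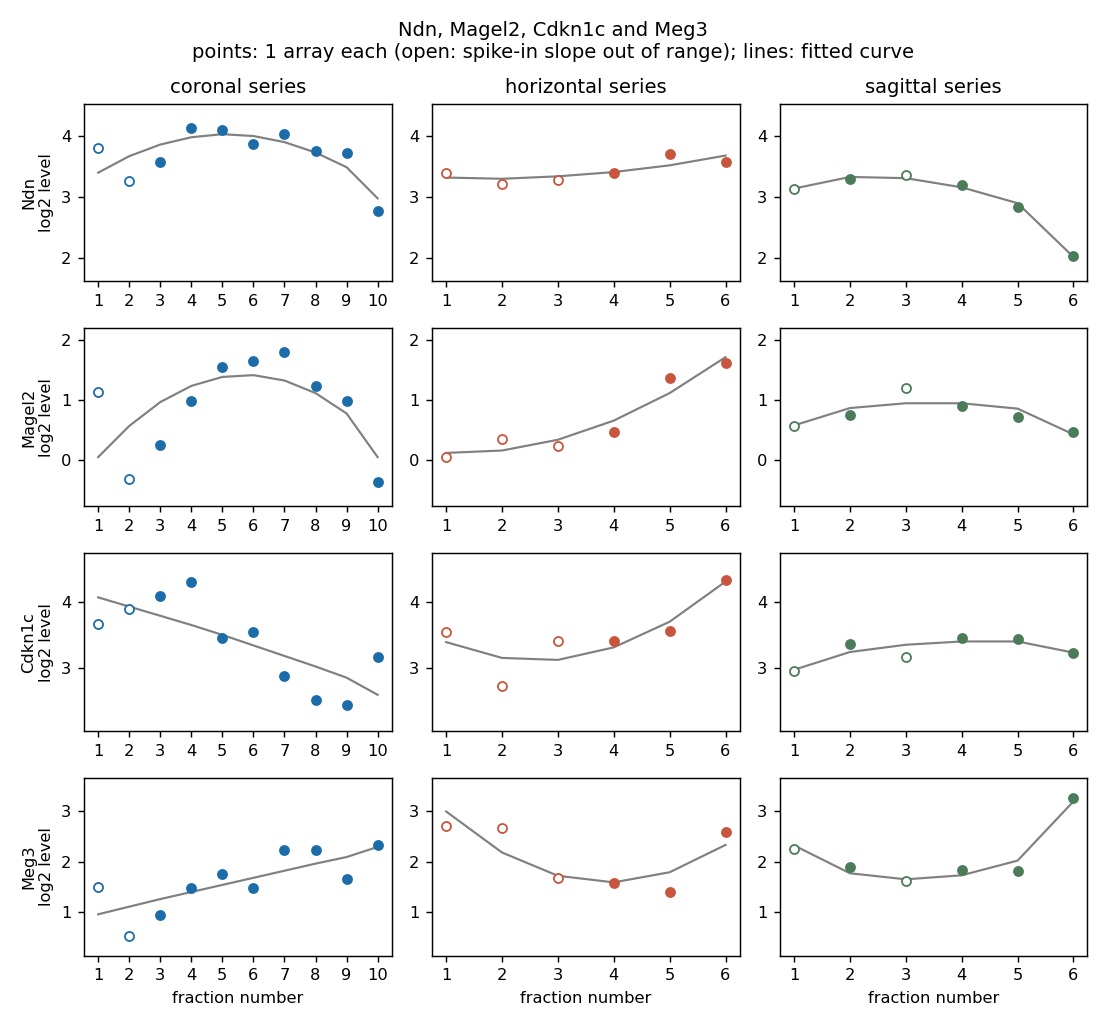
Log2 level of Ndn, Magel2, Cdkn1c and Meg3 against fraction number in each series, 1 point per array, open where the spike-in slope was out of range, with the fitted quadratic curve as a line; fractions that pooled several slabs are spaced as single fractions. Ndn arches along the coronal series and Cdkn1c falls along it, Magel2 (adjusted p = 0.0749) did not pass the coronal test, and in sagittal fraction 6 Ndn is lowest, at 2.03, while the Meg3 probe used is highest, at 3.25.

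Several genes had more than 1 RefSeq probe. The other probe of Dlk1 followed the one used with r = 0.987 over the 22 fractions, that of Nnat with 0.978 and the brightest other probe of Plagl1 with 0.988. The Dlk1 pair gave the same calls. The other Nnat probe also passed the coronal test (adjusted p = 0.0386). The other Peg3 probe followed the one used along the horizontal series (r = 0.993, adjusted p = 0.0287) but less along the coronal series (r = 0.585), where its adjusted p was 0.641. The other Peg10 probe, well above background in 11 fractions, gave 0.0210 for the coronal test and 0.0510 for the horizontal test. A pair of dimmer Plagl1 probes ran the other way along the horizontal series (r = -0.920 and -0.699), and the other Meg3 probes had r of 0.146 and 0.445, with coronal adjusted p of 0.649 and 0.809. Along the sagittal series the first of these ran opposite to the Meg3 probe used (r = -0.902) and the second had r of 0.115, so that the high reading in sagittal fraction 6 is that of 1 probe. The levels of Plagl1 and Meg3 are therefore those of the probe used, and probes of a gene can read different transcripts.

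Likeness between genes was taken as Pearson r of the log2 levels over the 22 fractions. These points share arrays, slides and the 3 mice, and r is given as a description. Of the 36 pairs of the 9 genes, 28 had r above 0 and 8 had r above 0.7, with a median of 0.541. Pairs of other genes were not counted beside these. Over the 22 arrays a107 had r between -0.822 and -0.510 with Peg3, Peg10, Magel2, Dlk1, Plagl1 and Nnat, and its part in their likeness was not tested. The pairs most alike were Peg3 with Plagl1 (0.877), Peg3 with Peg10 (0.852), Peg3 with Dlk1 (0.838) and Peg10 with Dlk1 (0.817), where the pairs of Peg10 hold its 8 dim readings. Peg3 and Plagl1 kept their likeness within each series, with r of 0.786, 0.982 and 0.884 along the coronal, horizontal and sagittal fractions. Of the 8 pairs that held Meg3, that with Magel2 had r of 0.026 and the others had r below 0, down to -0.556 with Peg3.

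The genes most like each of the 9 were named by r over the 22 fractions, 3 for each, 27 in all. Of these, 3 were imprinted genes of the wider list, which held 64 tested genes, while 20129 gene symbols had a matched probe in the series. What number other lists of genes would give was not tested. Asb4, of the Peg10 cluster, was among those most like Dlk1 (r = 0.935), Zdbf2 among those most like Magel2 (0.892), and Mirg, a microRNA host transcript of the same cluster, was the gene most like Meg3 (0.899). For Dlk1 the others were Shisal2a and Pgr15l (both 0.948, the latter well above background in 14 fractions). Peg3 was most like Pakap (0.936), Slc17a8, a vesicular glutamate transporter (0.932), and B3gnt6 (0.926, well above background in 12 fractions). Peg10 was most like Rftn1 (0.929), Ahi1 (0.907) and Arhgap36 (0.906). For Plagl1 they were Uhrf1bp1 (0.945), Kbtbd11 (0.935) and Cybrd1 (0.934).

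Nnat was most like Rhbdd3 (0.930), Hacd3 (0.929) and Plxdc2 (0.915), and Ndn most like Zfp346 (0.940), Wipi2 (0.933) and Tpra1 (0.916). Magel2 was also like B4gat1 (0.895) and Slc7a14 (0.892), and Meg3 also like Pkig (0.851) and Ocel1 (0.848). Cdkn1c was most like Aldh1a1, a retinoic acid synthesising enzyme (0.877), Adamts1 (0.873) and Stom (0.870). At r above 0.85, Plagl1 had 190 partner probes among those tested, Peg3 151, Nnat 111, Ndn 81, Dlk1 and Magel2 47 each, Peg10 29, Meg3 10 and Cdkn1c 7. These numbers depended on the processing, and no order of the genes is read from them. When arrays were centred on their medians they were 1480 for Nnat, 1215 for Plagl1 and 433 for Peg3, with quantile normalization 401 for Peg10 and 296 for Nnat, and with a107 regressed out 0 for Nnat, 55 for Plagl1, 59 for Peg3, 13 for Dlk1 and 113 for Ndn. Leaving out 1 array moved them between 92 and 367 for Plagl1, 83 and 220 for Peg3 and 3 and 44 for Meg3.

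Markers of cell types and regions moved with several of these genes, and their part in the changes was not tested. The hypothalamus list, with 8 of 8 genes measured and 5 well above background in all fractions, ranged in mean level from -2.74 to 1.67 along the coronal series, -2.32 to 2.55 along the horizontal and -3.01 to 0.59 along the sagittal. The highest value came in fraction 6 of the coronal and horizontal series and in fraction 3 of the sagittal series. Single genes of the list differed from its mean: in the coronal series Gal was highest in fraction 1 and Oxt and Nkx2-1 in fraction 7, and in the sagittal series Avp and Hcrt alone were highest in fraction 3, with Oxt, Agrp, Gal and Nkx2-1 in fraction 4, Pmch in fraction 5 and Pomc in fraction 6. Its r was 0.662 with Magel2, 0.629 with Peg10, 0.599 with Dlk1, 0.567 with Nnat and 0.442 with Peg3. With Plagl1, Meg3, Cdkn1c and Ndn it was only 0.389, 0.169, 0.114 and 0.090. The thalamus list (5 of 5 measured, mean level -2.08 to 0.55 over the series) had r of 0.779 with Peg3, 0.723 with Peg10, 0.712 with Plagl1 and 0.686 with Dlk1. With the other genes it lay between -0.420 (Meg3) and 0.566 (Nnat). Its genes differed: Rora was highest in coronal fraction 1, and Lef1 and Prkcd in horizontal fraction 6 while the others were highest in fraction 4. In the sagittal series each of the 5 was highest in a different fraction. The astrocyte list (6 of 6, mean level 2.79 to 4.37) had r of 0.773 with Dlk1, 0.710 with Peg3 and 0.703 with Cdkn1c. With the others it lay between -0.505 (Meg3) and 0.637 (Peg10). Its mean was highest in coronal fraction 3, but Gfap and S100b were highest in fraction 1, Slc1a2 in 6 and Slc1a3 in 10.

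Cdkn1c also moved with the meningeal fibroblast list (8 of 8 measured, r = 0.558), whose mean level ranged from 1.57 to 4.10 along the horizontal series and was highest in fraction 6, as Cdkn1c was. Its r with the neuron list was -0.635. Nnat had r of 0.771 with the endothelium and pericyte list (7 of 7, mean level 1.27 to 2.24), each of whose genes was highest in a different coronal fraction. The blood list (6 of 6) ranged from -0.75 to 1.38 along the coronal, 0.40 to 2.29 along the horizontal and -0.58 to 2.56 along the sagittal series. It was highest in sagittal fraction 6, where Plagl1, Ndn, Magel2 and Peg3 had their lowest and Meg3 and Nnat their highest sagittal level. Peg10 was not well above background there. The r of the blood list with Plagl1 was -0.676. Pituitary markers passed the filter on dim probes for 3 of 7 genes, without Prl, Tshb, Pou1f1 and Fshb, and their highest mean level was -1.23, in horizontal fraction 6. This came from Cga alone, which read 3.01 there and was well above background in 4 fractions, whereas Gh and Lhb were highest in horizontal fraction 2, at -3.95 and -0.91. Of the bone and muscle list 6 of 7 genes had a matched probe, Bglap being the exception, 5 passed the filter, without Ckm, and their highest mean level was -2.17, in sagittal fraction 6. The lists for dividing cells, cerebellum, olfactory bulb, hindbrain, choroid plexus and cerebral cortex had r between -0.624 (Cdkn1c with cerebral cortex) and 0.560 (Dlk1 with hindbrain) with the 9 genes.

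**Figure D4:**
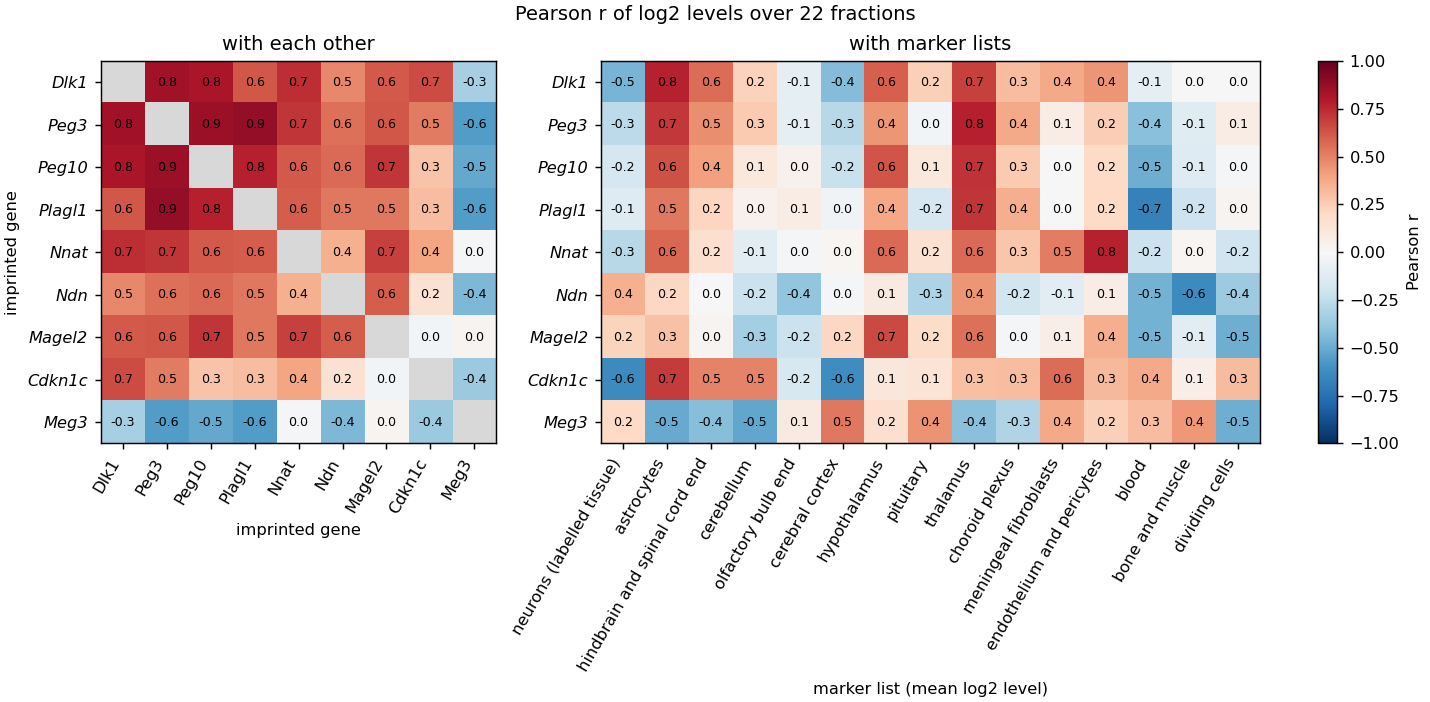
Pearson r over the 22 fractions between the 9 imprinted genes (left) and between each of them and the mean log2 level of each marker list (right), from -1 in blue to 1 in red. Peg3 has r above 0.8 with Plagl1, Peg10 and Dlk1, whereas Dlk1 with Plagl1 has 0.623, and Meg3 has r at or below 0.03 with the other 8.

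The neighbours in each cluster were read in the same way. Of the neighbours of Peg10, Calcr, the calcitonin receptor, had r of 0.874 and Asb4, an ankyrin repeat protein, 0.858, whereas Sgce, which shares its start region with Peg10, had 0.568 and Pon2 and Pon3 had -0.109 and -0.087. Next to Peg3, Usp29 had r of 0.762 and Zim1 0.676, and Zim3 had -0.276. Snrpn had 0.701 with Ndn and 0.659 with Magel2, and Mkrn3 0.701 with Magel2 and 0.331 with Ndn. Ube3a, of the same cluster and transcribed from the maternal copy in neurons, had 0.343 with Ndn and 0.370 with Magel2. Blcap, whose intron holds Nnat, had 0.660 with it, and Phactr2 had 0.629 with Plagl1. Of the neighbours of Cdkn1c, Cd81 had the highest r (0.657) and Kcnq1ot1, the non-coding RNA that silences the cluster on the paternal copy, had -0.002. The others of that cluster lay between -0.150 (Osbpl5) and 0.641 (Slc22a18), with Kcnq1, Nap1l4, Tspan32, Ascl2 and Tssc4 between them. Begain and Dio3 had r of 0.066 and 0.039 with Dlk1 and of 0.333 and 0.253 with Meg3, and Mirg had -0.294 with Dlk1. Casd1 and Ppp1r9a, also of the Peg10 cluster, had 0.727 and 0.608 with Peg10, and Peg12 and Atp10a had 0.077 and 0.489 with Ndn and 0.107 and 0.162 with Magel2.

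The wider list of imprinted genes held 72 genes, of which 64 were tested, 4 had no matched probe and 4 were too dim to be tested. Along the horizontal series 14 of the 64 (21.9%) passed, beside the 6.57% of all probes, 13 with a rise towards fraction 6 and 1, Mirg, with a fall. Calcr (4.86 ± 0.88, adjusted p = 0.0201) and Asb4 (4.45 ± 0.67, 0.00979) had changes near that of Dlk1, and Ddc, the enzyme that makes dopamine and serotonin, had 3.33 ± 0.67 (0.0301). Klf14 passed (adjusted p = 0.0171), but only 11 of its readings exceeded background clearly and it read -7.05 in horizontal fraction 2, so that the size of its change is not measured. Zdbf2, Phactr2, Nap1l5, Grb10, Tnfrsf23, Slc22a18, Cd81, Ube3a and Casd1 had linear changes of 0.78 to 2.61 log2 units. The lowest reading of Tnfrsf23, -4.30 in horizontal fraction 1, was not well above background. The plot of horizontal changes places the listed genes among them. These calls use the same 3 arrays with the spike-in slope out of range.

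**Figure D5:**
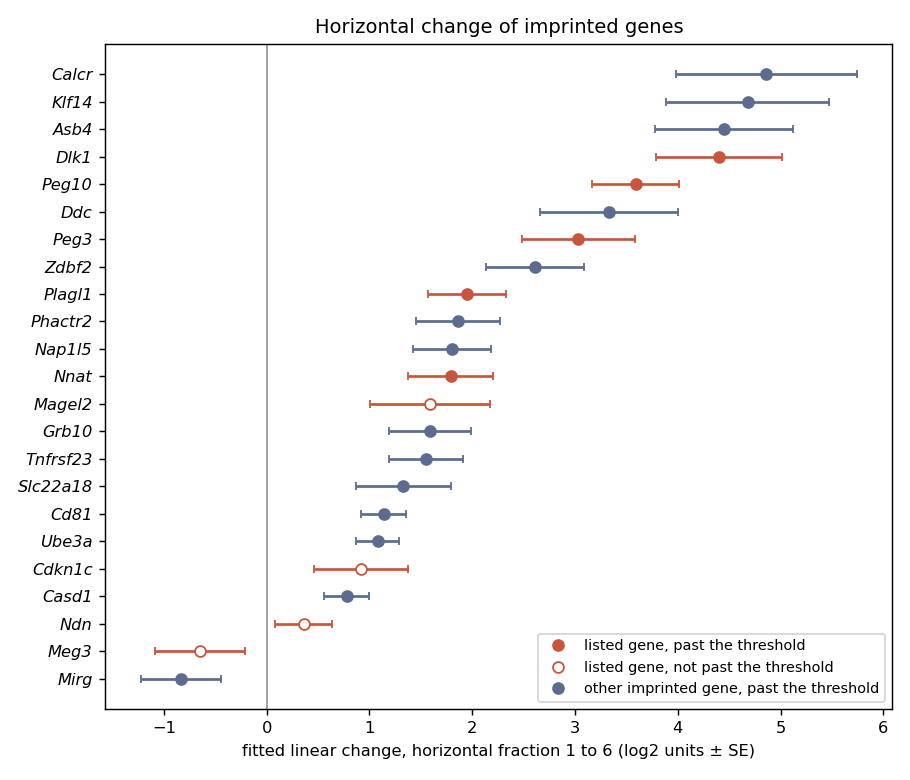
Fitted linear change from horizontal fraction 1 to 6 in log2 units, with its SE as a bar, for the 9 imprinted genes (red, open where not past the threshold) and for the 14 other imprinted genes past the threshold (blue). Dlk1 and Peg3 lie among the largest rises with Calcr, Asb4 and Ddc, the points of Peg10 and Klf14 rest on dim readings, and Meg3 and Mirg lie below 0. The threshold is that of the linear and quadratic terms together, so a curve past it need not rise or fall steadily.

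Along the coronal series 23 of the 64 (35.9%) passed, beside 19.8% of all probes, 18 with a positive linear term and 5 with a negative one. Most of the 64 were well above background in all 22 fractions, and of the 25815 such probes, tested alone, 8458 passed. Several of the 18 were arched along the series, as the test takes both terms together: the linear term was smaller than its SE for Ago2 (0.12 ± 0.27) and Casd1 (0.17 ± 0.19), which were highest in fractions 6 and 5, and Herc3 (0.48 ± 0.31) was lowest in fraction 10. Most of the 18 had their lowest level in coronal fraction 2, an array with the spike-in slope out of range. Among the 9 genes the 5 that passed all had a negative linear term, of which that of Peg10 was 0.05 with normexp background correction, 0.13 with quantile normalization and 0.01 with slide as a block. Of the 23, Calcr had the same sign as Peg10 and Dlk1, with -1.85 ± 0.75 (adjusted p = 0.00853) and its highest level, 0.16, in coronal fraction 7, and was well above background in 20 fractions. The others of the 23 with a negative linear term were Ddc (-2.38), Nap1l5 (-1.31), Sgce (-0.76) and Commd1 (-0.75). Ppp1r9a, which anchors a phosphatase to actin, and Cobl, which nucleates actin, had positive terms of 0.63 ± 0.24 and 1.68 ± 0.46. The sagittal linear term passed for 5 of the 64 (7.8%, beside 10.2%), namely Commd1, Grb10, Inpp5f, Mcts2 and Sgce, and the quadratic term for none (beside 0.0303%). The others that passed the coronal test were Adam23, Ago2, Bcl2l1, Begain, Blcap, Casd1, Cdh15, Commd1, Copg2, Ddc, H13, Herc3, Htr2a, Igf2r, Inpp5f, Klf14, Nap1l5, Osbpl5, Sgce and Trappc9. Of the genes next to H19, Igf2, a growth factor, passed none of the tests, with adjusted p of 0.607, 0.140, 0.693 and 0.683, and Ins2 and Th passed none either.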

How the data were processed

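Total RNA of 22 brain fractions was measured on Agilent 1-colour (Cy3) mouse arrays, design 28005. Per the file headers, the authors obtained the deposited intensity values, linear and background-subtracted, with Feature Extraction 10.10.1.1. A log2 table the authors deposited as well holds the same intensity values on a log2 scale, each less its array's 75th percentile (100.0% of values within 0.02). Control spots and spots marked as outliers were left out, spots of a probe were averaged, and log2 values minus the 75th percentile were analysed for 55600 probes. None was saturated.

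Probes were named through RefSeq genes of build GRCm38.p6, whose coordinates were not used for the probes, and 26553 of 28087 RefSeq probes matched. The 39621 probes well above background in at least 1 fraction of each series were tested in R 4.3.3 with limma 3.58.1, in 1 model that gave each series its own intercept and orthogonal linear and quadratic terms of position (13 residual degrees of freedom, median residual SD 0.376). Coronal and horizontal position were tested by F tests, the sagittal terms singly, all two-sided. P-values were adjusted by the Benjamini-Hochberg method over every tested probe, and adjusted values under 0.05 were called. The linear term is given as the fitted change between the ends of a series. The model was also run on simulated data with known curves, the outcome of which is not reported here. Tables and figures were made in Python 3.11.15 with numpy 2.4.6, pandas 2.3.3 and matplotlib 3.10.9.

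Samples were grouped by the section plane in the labels. The 10 genes, the wider imprinted list, the cluster neighbours and the marker lists were chosen with earlier results of these data known. Named besides the 10 genes are the 3 most alike genes for each, the neighbours in their clusters and genes of the wider list that pass a test. Alternatives covered scaling, background correction (normexp with an offset of 50, run on median spot signals), filters, spike-in signal, slide, samples, moderation, curve, probe and leaving out each fraction. Non-coding interval probes near the 10 genes were not analysed here, since the RefSeq probes carry no position on the array's build. With 1 array per fraction, the number of arrays limits the precision.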

Additional observations from a re-analysis of the deposited data

Results flagged for a closer look

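Of 27 groups examined, the 9 genes in each of 3 series, 1 had a fraction far from the others. Plagl1 in sagittal fraction 6 read 1.99, with the next lowest fraction at 3.10, a gap of 0.716 of the whole range over the 6 fractions. Chance marks about 1 group in 20. Sagittal fraction 6 pooled 3 slabs, and the blood marker list was highest there; their part was not tested.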

How the results depend on the processing

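Of the 9 genes, the number past the coronal test (5) was 0 with slide as a block (1598 of all probes, against 7855), 0 on the coronal arrays alone (635) and 1 with the linear term alone (2821), and lay between 2 and 8 without any 1 fraction. The number past the horizontal test (5) was 1 with a107 as a covariate (101 of all probes, against 2604), 0 on arrays with the spike-in slope in range (13), 0 on the horizontal arrays alone (0) and 0 with the linear term alone (206), and lay between 0 and 6 without any 1 fraction. Past the sagittal linear test (1) it was 0 when arrays were centred on their medians (1681 of all probes, against 4046), on the sagittal arrays alone (0) and with the linear term alone (4). It was 2 without scaling (2765), with normexp (6393), with probes detected in all fractions (2 of 8, beside 4876 of 25815), on arrays with the slope in range (3435) and with trended robust moderation (4410). Past the sagittal quadratic test (0, beside 12 of all probes) it was 2 without scaling (219) and with trended robust moderation (236). It was 1 with normexp (1001), with probes detected in all fractions (1 of 8, beside 534 of 25815), with a107 as a covariate (40) and with slide as a block (177). Both sagittal numbers had left-out ranges, from 0 to 3 and from 0 to 2, beside 0 to 4965 and 0 to 394 of all probes. In all other alternatives each number stayed within 1.5 times its value, although with a107 as a covariate the 1 gene past the sagittal linear test was Plagl1 (adjusted p = 0.0408) and not Ndn (0.0510).

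Among called results, a direction, taken as the sign of the larger of the linear and quadratic terms, turned in 6 cases. The coronal linear term of Peg3 turned with its other probe (adjusted p = 0.641) and the quadratic term of Peg10, the larger of its 2 terms, with normexp (0.756). The horizontal change of Plagl1 turned with its dim probes (0.0998 and 0.716), with the mean of its probes (0.840) and on arrays in range (1). Besides these, the smaller, linear coronal term turned for Peg10 with quantile normalization (0.13, from -0.62) and with slide as a block (0.01) and for Magel2, not called here, on arrays in range (-0.54, from 0.09, adjusted p = 0.0116) and without scaling (-0.05, 0.0498). The cause was not tested. Centring moved the median horizontal change of all probes from -0.20 to 0.31, and its calls from 1563 up and 1041 down to 1026 and 198 (quantile, 2618 and 607; no scaling, 1123 and 1179); the rises of Dlk1, Peg3, Peg10, Plagl1 and Nnat kept their sign under these scalings. No paired analysis was possible because fraction numbers are positions along different axes in different mice. Dim signal limits Peg10, which was well above background in 14 fractions.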
